A study of Bos taurus with 18 samples.

Results

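On the high-grain diet, 4 small RNA libraries from supplemented cows (HG_PHY) were set against 5 libraries from control cows (HG_CON). The 9 libraries were taken by their sample titles out of 18 in the series, and each came from a different cow. All cows were ruminally cannulated Holsteins that were not in milk, and rumen papillae were sampled by biopsy. HG_CON cows were controls on the high-grain diet, with 65% concentrate, after a 100% forage diet. HG_PHY cows ate the same diets and belonged to the arm given PHY, to which they had been allocated at random. The sources used here do not say what PHY stands for, at what dose it was fed, or whether feeding it had begun on forage. The other 9 libraries, FD_CON (5) and FD_PHY (4), came from the same arms on forage, before the change of diet, and serve here only for values beside the grain ones. Whether a library with a given number on forage and on grain came from the same cow is not stated.

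MicroRNAs (miRNAs) are short RNAs that guide Argonaute proteins to messenger RNAs through a seed near their 5′ end, and the targeted messages are translated less and decay faster. A precursor hairpin can give a miRNA from either arm (5p and 3p), and hairpins that lie close together are often made from a single transcript. Rumen papillae are finger-like folds of the rumen wall. They carry a stratified, keratinised epithelium that absorbs fermentation acids, over a core of connective tissue with blood vessels and immune cells. A grain-rich diet is known to speed fermentation and to acidify the rumen.

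Control libraries held 8.51 M ± 1.62 reads assigned to miRNAs (mega-reads, SD, n = 5), and supplemented libraries 9.24 M ± 3.04 (SD, n = 4). These made up between 27.4% and 37.9% of all reads of a library. On average 555 miRNAs were seen per library in HG_CON and 561.5 in HG_PHY. Pairs of libraries within an arm had a chi-square per degree of freedom between 142.5 and 833.7, far beyond sampling noise, so no library was a copy of another. The arms were not fully separated as wholes. The root mean square difference in log2 level between 2 libraries had a median of 0.904 for the 20 pairs across arms, 0.910 for the 10 pairs within HG_CON and 0.804 for the 6 pairs within HG_PHY. On the first principal component of log2 level (23.2% of the variance), HG_CON 1 to 4 lay between -10.6 and 0.766. HG_PHY 1 to 4 lay between 0.987 and 8.43, with HG_CON 5 among them at 6.32. HG_CON 3, at 0.766, lay next to HG_PHY 1, at 0.987. On the second component (16.9%), HG_PHY 1 and 2, at 9.15 and 6.29, lay near HG_CON 1, at 5.13. HG_PHY 3 and 4, at -4.47 and -1.25, lay near the other controls, at -6.71 to -1.37. Of 6 library values, among them depth, diversity and the share of the most abundant miRNA, 0 differed between the arms by a two-sided exact permutation test (smallest p = 0.111, adjusted p = 0.222). The smallest p that 5 against 4 libraries allow in this test is 0.00794.

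miRNAs typical of the labelled tissue were present, though not every listed marker was measured. miR-205, typical of stratified epithelia, stood at 29158 ± 4738 CPM (SD, n = 5) in HG_CON and 27501 ± 1579 CPM (SD, n = 4) in HG_PHY, where CPM (counts per mega-read) are raw counts over a library size scaled by TMM, the trimmed mean of M values. All 5 members of the miR-200 family, typical of epithelia, averaged over 1000 CPM on grain. Of 12 entries listed for stratified epithelium and keratinocytes, 8 were measured, and miR-203 was not among them. Of those measured, miR-184 and miR-211 were scarce, averaging 5.79 and 13.4 CPM on grain. Erythrocyte, leukocyte and smooth-muscle miRNAs were present as well.

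Which miRNAs differed between supplemented and control cows on grain was tested over the 468 miRNAs that passed a filter on low counts. edgeR's quasi-likelihood test with Benjamini-Hochberg adjustment called 0 of them (0% called), at an adjusted p under 0.05. The smallest adjusted p was 0.277. At an unadjusted p under 0.05 there were 32 miRNAs (6.84% of those tested), 22 of them higher in HG_PHY (4.7%) and 10 lower (2.14%). DESeq2 called 2, miR-193a-5p and miR-190a, and limma-voom and limma-trend called 0. Values below are therefore descriptions of miRNAs that did not pass this test, chosen by lowest p within each direction among the 279 with a mean of at least 10 CPM on grain.

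Over all 468, 235 were higher and 233 lower in HG_PHY, with a median log2 change of 0.00 and a median absolute change of 0.23. Scaling by TMM removes any common shift and so sets this centre near 0 largely beforehand. The even split and the median are therefore not a result about the arms. A total of 24 miRNAs had a log2 change beyond 1 in either direction, and miR-190a was the 1 among them with at least 10 CPM. Among the 279 better-covered miRNAs, 241 had a 95% confidence interval that lay wholly within 1 log2 unit of no change. Every library of HG_PHY was above every library of HG_CON for 10 miRNAs (2.14%) and below for 2 (0.427%), so the arms were apart for 12 in all (2.56%). Those above were miR-193a-5p, miR-454, miR-2284w, miR-877, miR-450b, miR-22-5p, miR-503-5p, miR-2284y, miR-582 and hsa-miR-412-5p, and those below were miR-181c and miR-2320-5p.

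**Figure D1:**
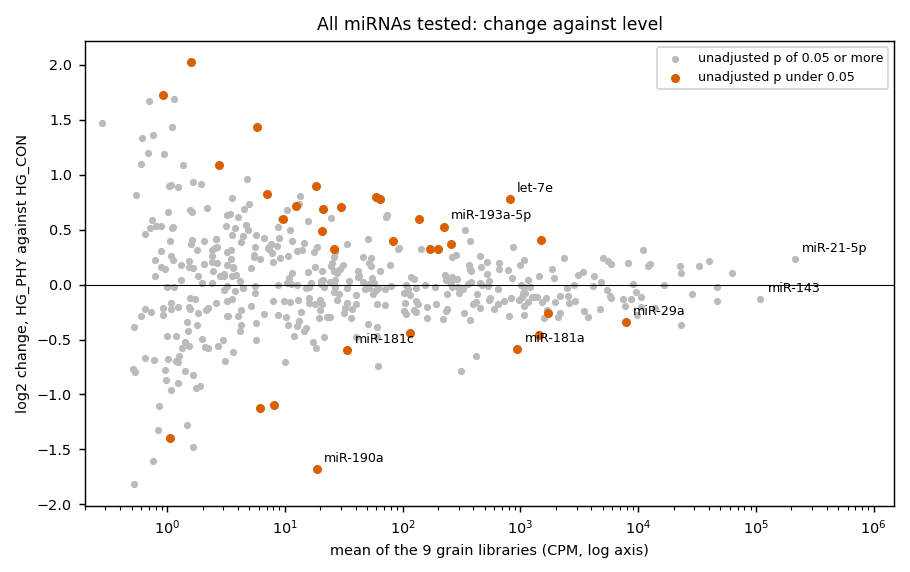
Log2 change of HG_PHY against HG_CON (vertical axis) over the mean level on grain in CPM (horizontal log axis) for the 468 miRNAs tested, with the 32 of unadjusted p under 0.05 in orange. Large changes lie among scarce miRNAs at the left, except for miR-190a, and the most abundant miRNAs at the right lie close to 0.

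Among the miRNAs higher in HG_PHY, the 5p arm of miR-193a (chromosome 19 in the authors' files; RefSeq's table also lists a MIR193A-2 on chromosome 14) had the lowest p. It stood at 179.5, 173, 169, 244 and 168 CPM in HG_CON 1 to 5 and at 276, 263, 281 and 257 CPM in HG_PHY 1 to 4. The supplemented libraries lay close together, all above the controls, of which HG_CON 4 was far above the other 4. The means were 187 ± 32.1 CPM (SD, n = 5) and 269 ± 11.1 CPM (SD, n = 4), which is 1.44-fold higher (log2 change 0.53 ± 0.13 (SE), 95% interval 0.25 to 0.81, edgeR adjusted p = 0.277). DESeq2 called it (adjusted p = 0.0369), and edgeR called it without HG_CON 4 (log2 change 0.64, adjusted p = 0.0189), within a range of 0.0189 to 0.482 over 31 alternatives. The other arm of the hairpin in the authors' files, miR-193a-3p, stood at 259 ± 58.0 CPM (SD, n = 5) in HG_CON and 271 ± 75.5 CPM (SD, n = 4) in HG_PHY (log2 change 0.06 ± 0.19); the difference between the arms was not tested.

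let-7e (chromosome 18) belongs to the let-7 family, which is known to restrain growth and to mark differentiated cells. Its levels were 430.2, 534, 607, 917 and 588 CPM in HG_CON 1 to 5 and 797, 1077, 1016 and 1329 CPM in HG_PHY 1 to 4. The arms overlapped through 1 pair, since HG_PHY 1 lay below HG_CON 4, and the other 3 supplemented libraries were above every control. The log2 change was 0.78 ± 0.21 (95% interval 0.35 to 1.21, 1.71-fold higher, edgeR adjusted p = 0.277). edgeR called it without HG_CON 4 (log2 change 0.96, adjusted p = 0.0189), within a range of 0.0127 to 0.482 over 31 alternatives. Its neighbours on the same cluster stood at 1302 ± 248 and 1202 ± 257 CPM for miR-99b (log2 change -0.11 ± 0.21) and at 1155 ± 285 and 1185 ± 90.1 CPM for miR-125a (0.04 ± 0.17), each in HG_CON (SD, n = 5) and HG_PHY (SD, n = 4). The other arm of its hairpin, hsa-let-7e-3p, was scarce and had a log2 change of 0.34 ± 0.40, and hsa-miR-99b-3p had 0.18 ± 0.24. Reads of let-7e are partly shared with other let-7 names in the authors' counting, and its adjusted count was 0.476 of its raw count, so its level is uncertain. With the adjusted counts edgeR gave a log2 change of 0.81 (adjusted p = 0.236).

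Further miRNAs had all HG_PHY libraries above all HG_CON libraries. miR-454 (chromosome 19, within SKA2, a gene of the mitotic spindle), of the miR-130 and miR-301 family, stood at 66.5, 82.2, 67.6, 84.3 and 65.4 CPM in HG_CON and at 90.6, 101, 98.6 and 96.7 CPM in HG_PHY. That gave a log2 change of 0.40 ± 0.14 (edgeR adjusted p = 0.574), while miR-301a, less than 10 kb away, had 0.11 ± 0.20. The supplemented libraries of miR-454 varied less than the controls, but choice by lowest p favours miRNAs of small spread. Over the 279 better-covered miRNAs, the coefficient of variation was larger in HG_CON for 154 and in HG_PHY for 125. miR-877 (chromosome 23, within ABCF1, a gene of translation initiation) ranged from 5.27 to 11.9 CPM in HG_CON and from 13.8 to 20.6 CPM in HG_PHY (log2 change 0.72 ± 0.27). miR-2284w (X chromosome, within DOCK11) ranged from 14.5 to 19.6 and from 21.1 to 29.9 CPM (0.49 ± 0.18). The host genes named here and below are those that span the miRNA gene in RefSeq's bovine table (assembly ARS-UCD2.0), in which strand and exons were not used.

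miR-450b (X chromosome) lies in a cluster with miR-424 and miR-503, which are known for restraining the cell cycle. It stood at 58.6, 28.1, 42.2, 63.2 and 51.6 CPM in HG_CON and at 66.7, 123, 71.9 and 71.7 CPM in HG_PHY (log2 change 0.77 ± 0.31, edgeR adjusted p = 0.654). The arms did not overlap, and HG_PHY 2 was far above the other supplemented libraries. Without HG_PHY 2 the log2 change was 0.50. Of its neighbours, miR-450a had a log2 change of 0.60 ± 0.31, miR-503-5p 0.60 ± 0.42, miR-424-5p 0.41 ± 0.27 and miR-424-3p, at about 3 CPM, -0.15 ± 0.43.

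miR-22-5p (chromosome 19) was at 171, 194, 124, 201 and 205 CPM in HG_CON and at 213, 220.0, 219 and 247 CPM in HG_PHY, with no overlap (log2 change 0.33 ± 0.14, edgeR adjusted p = 0.677). Its abundant partner miR-22-3p, at 5573 ± 1088 and 6329 ± 1310 CPM (SD, n = 5 and n = 4), had 0.18 ± 0.18. The remaining 3 of the 10 miRNAs named in this direction overlapped between arms. hsa-miR-409-3p, a human entry on chromosome 21 beside bovine miR-409a, stood at 13.2 ± 5.02 CPM in HG_CON (SD, n = 5) and 24.5 ± 8.38 CPM in HG_PHY (SD, n = 4), a log2 change of 0.90 ± 0.35 (edgeR adjusted p = 0.654). miR-6119-3p (X chromosome, within the ribosomal protein gene RPL39) had 0.32 ± 0.14, or 0.21 without HG_PHY 2, while its partner miR-6119-5p had -0.01 ± 0.13. miR-2284ab (chromosome 6, within AFF1) had 0.69 ± 0.30, and for each of these 3 miRNAs 3 of 4 supplemented libraries were above every control.

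Among the miRNAs lower in HG_PHY, miR-190a (chromosome 10, within TLN2, which encodes a talin, a linker of integrins to actin) had the largest difference at 10 CPM or more. It stood at 32.6, 12.9, 38.2, 8.88 and 42.2 CPM in HG_CON 1 to 5 and at 7.48, 12.5, 9.25 and 4.59 CPM in HG_PHY 1 to 4. Libraries HG_CON 1, 3 and 5 were far above all supplemented libraries, whereas HG_CON 2 and 4 lay among them or next to them. The means were 26.96 ± 15.1 CPM (SD, n = 5) and 8.44 ± 3.29 CPM (SD, n = 4), a log2 change of -1.68 ± 0.47 (95% interval -2.65 to -0.70, edgeR adjusted p = 0.286). DESeq2 called it (adjusted p = 0.0369), within a range of 0.0369 to 0.639 over 31 alternatives.

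The miR-181 family tunes antigen-receptor signalling in lymphocytes and occurs in other cells too. miR-181a (chromosomes 11 and 16) stood at 964, 1232, 1411, 1115 and 822 CPM in HG_CON and at 563, 785, 782 and 823 CPM in HG_PHY (log2 change -0.59 ± 0.18, edgeR adjusted p = 0.286). All supplemented libraries were at or below the lowest control, HG_CON 5, to within 1 CPM. miR-181c (chromosome 7) stood at 30.7, 44.2, 45.2, 42.2 and 37.6 CPM against 21.7, 26.1, 28.5 and 29.6 CPM, with the arms apart (log2 change -0.59 ± 0.18, edgeR adjusted p = 0.286). Its neighbour miR-181d had a log2 change of -0.33 ± 0.25 and miR-181b, from the miR-181a loci, -0.25 ± 0.14.

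miR-29a (chromosome 4), of a family known for targeting collagen and other matrix transcripts, stood at 7018, 10027, 9029.9, 8412 and 8613 CPM in HG_CON and at 6679, 5701, 6980.3 and 7892 CPM in HG_PHY. The lowest control, HG_CON 1, was below HG_PHY 4 and above the other 3 supplemented libraries (log2 change -0.34 ± 0.13, edgeR adjusted p = 0.574). miR-146a (chromosome 7), which dampens NF-kB signalling downstream of innate receptors, stood at 1981, 1454, 2189, 1421 and 1206 CPM and at 1177, 1493, 1077 and 1066 CPM. Of the supplemented libraries, HG_PHY 2 lay within the range of the controls and the other 3 below it (log2 change -0.46 ± 0.19, edgeR adjusted p = 0.677). Without HG_CON 3, the highest control, the log2 change was -0.30.

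The other 5 of the 10 miRNAs named in this direction overlapped between arms. miR-130a (chromosome 15) had a log2 change of -0.44 ± 0.20, opposite in sign to miR-454 of the same family, and miR-151-3p (chromosome 14, within PTK2, the focal adhesion kinase gene) -0.26 ± 0.13, or -0.16 without HG_PHY 4. miR-142-5p (chromosome 19), made in blood cell lineages, stood at 2432, 2471, 3028, 1753 and 1746 CPM in HG_CON and between 1709 and 1926 CPM in HG_PHY (-0.29 ± 0.15, or -0.14 without HG_CON 3). Here HG_CON 4 and 5 were as low as the supplemented libraries. miR-126-3p (chromosome 11, within EGFL7), typical of endothelium, had -0.21 ± 0.11, or -0.09 without HG_PHY 3, and miR-29d-3p (chromosome 16) -0.48 ± 0.25, or -0.27 without HG_CON 2. The last 3 had an unadjusted p above 0.05 in edgeR.

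**Figure D2:**
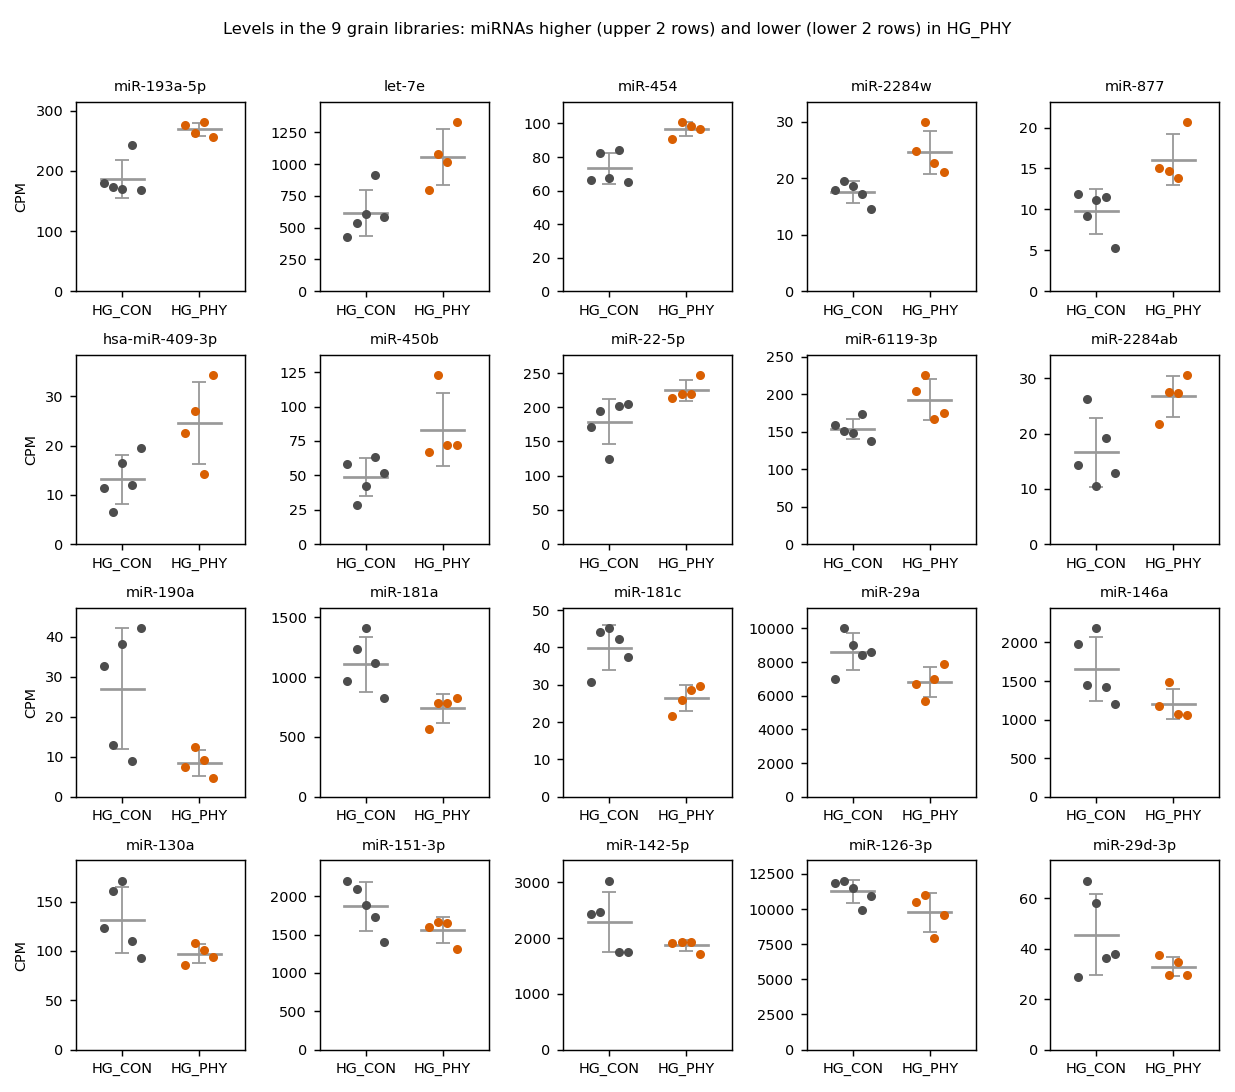
CPM in each of the 9 grain libraries for the 10 miRNAs of lowest p that were higher in HG_PHY (upper 2 rows) and the 10 that were lower (lower 2 rows). Points are libraries, in order of replicate number, with the mean and SD of each arm in grey. The arms are apart for miR-193a-5p, miR-454, miR-2284w, miR-877, miR-450b, miR-22-5p and miR-181c.

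Whether the same difference was there before grain was asked of the forage libraries of the same arms. edgeR called 0 of 468 miRNAs for FD_PHY against FD_CON (0% called), with 22 at an unadjusted p under 0.05 (4.7%), 10 of them higher (2.14%) and 12 lower (2.56%) in the PHY arm, and DESeq2 called miR-190a. It also called 0 for the difference between the grain and the forage contrast, where 10 had an unadjusted p under 0.05 (2.14%), 6 in the positive (1.28%) and 4 in the negative direction (0.855%), and DESeq2 and limma-voom called 0. These contrasts take the same cows on both diets as separate libraries, and the p of a difference treats them as independent. How this shifts the p was not tested. Because edgeR called 0 for the difference (smallest adjusted p = 0.849), nothing can be called particular to grain by this test.

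For miR-190a the values were alike on both diets. It stood at 45.3, 23.4, 46.3, 8.86 and 41.4 CPM in FD_CON 1 to 5 and at 8.78, 6.56, 10.1 and 6.59 CPM in FD_PHY 1 to 4. On forage too, FD_CON 4 lay among the supplemented libraries, and the other 4 controls lay above them. The forage libraries came from the same cows, so they add no further animals and are no independent repeat. The forage log2 change was -2.05 ± 0.48 (edgeR unadjusted p = 0.000331, adjusted p = 0.155), and DESeq2 called it (adjusted p = 0.00261). The grain change minus the forage change was 0.37 ± 0.64.

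By contrast, miR-193a-5p stood at 234 ± 19.8 CPM in FD_CON (SD, n = 5) and 221 ± 26.9 CPM in FD_PHY (SD, n = 4), a forage log2 change of -0.09 ± 0.13. The grain change minus the forage change was 0.61 ± 0.19 (edgeR unadjusted p = 0.00390, adjusted p = 0.914). miR-22-5p had a forage log2 change of -0.25 ± 0.14 and a difference of 0.58 ± 0.20 (unadjusted p = 0.00748). let-7e had 0.15 ± 0.21 on forage and a difference of 0.63 ± 0.29 (unadjusted p = 0.0446), and miR-181c 0.00 ± 0.18 and -0.60 ± 0.26 (unadjusted p = 0.0300). miR-142-5p had 0.21 ± 0.15 and -0.50 ± 0.21 (unadjusted p = 0.0260). These miRNAs were chosen by their p on grain, and the grain change is part of the difference. Their unadjusted p values for the difference are therefore biased towards small ones, and edgeR called none of them for it. hsa-miR-409-3p had 0.90 ± 0.35 on forage, as on grain, and miR-29a -0.28 ± 0.13.

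**Figure D3:**
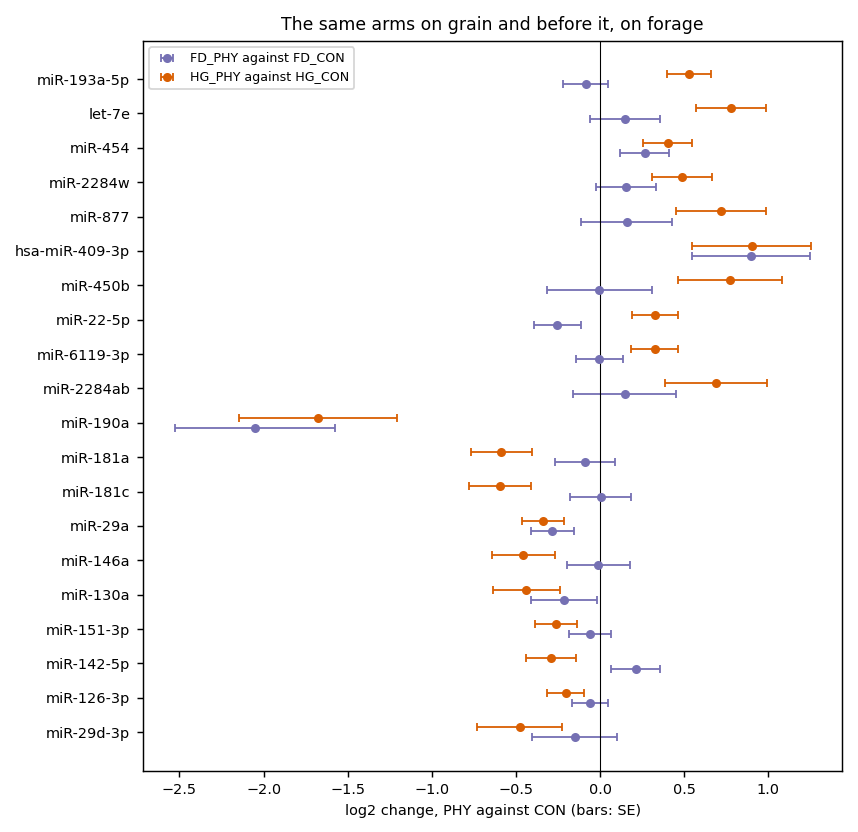
Log2 change of the PHY arm against the CON arm, with bars of 1 SE, on grain (orange) and on forage (purple) for the 20 miRNAs chosen by their p on grain. miR-190a, hsa-miR-409-3p and miR-29a lie on the same side at like distances, and miR-193a-5p and miR-22-5p lie on opposite sides of 0. Since the grain values chose the miRNAs, their larger size on grain is not a result.

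Families and clusters were described by lists, whose members share reads or transcripts and so do not count as independent. All 9 members of the let-7 family were higher in HG_PHY, against 235 of 468 over all miRNAs, with a median log2 change of 0.20 beside 0.00 (0.11 without HG_PHY 3, 0.32 without HG_PHY 1). In edgeR 0 of the 9 were called, and let-7e was the 1 with an unadjusted p under 0.05. After let-7e came miR-98 at 0.24 ± 0.13, let-7b at 0.31 ± 0.20 and let-7i at 0.20 ± 0.13, or 0.04 without HG_PHY 2 and 0.32 without HG_PHY 3. The summed level ran from 97861 to 136029 CPM in HG_CON and from 94001 to 153436 CPM in HG_PHY, so the arms overlapped, with HG_PHY 1 the lowest of the grain libraries and HG_PHY 3 and 4 the highest. On forage 1 member was higher and 8 lower (median -0.18).

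The miRNAs of the DLK1-DIO3 region on chromosome 21, an imprinted cluster expressed from the maternal chromosome, were higher in HG_PHY in 33 of 35 tested members. The other 12 of 47 measured members did not pass the filter. The median log2 change was 0.54, beside 0.00 over all miRNAs, and ranged from 0.35 (without HG_PHY 4) to 0.85 (without HG_CON 5) as each library was left out. Members with an unadjusted p under 0.05 in edgeR were miR-382 (0.83 ± 0.34), miR-379 (0.60 ± 0.28) and miR-494 (0.71 ± 0.34), and the next was miR-411b (1.67 ± 0.83), at under 1 CPM on average. None of the 35 was called by edgeR or DESeq2. miR-379, the most abundant of them, stood at 103, 65.8, 113, 89.1 and 187 CPM in HG_CON and at 141, 215, 103 and 218 CPM in HG_PHY.

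The levels of these members varied together from library to library. Their summed level was 376, 264, 613, 289 and 713 CPM in HG_CON 1 to 5 and 559.9, 716, 382 and 879 CPM in HG_PHY 1 to 4. Libraries HG_CON 3 and 5 were as high as supplemented ones, and HG_PHY 3 was as low as HG_CON 1, so the arms overlapped widely. The numbers of members above their grain median were 8, 1, 24, 1 and 25 of 35 in HG_CON and 18, 24, 7 and 32 in HG_PHY. On forage the sum ran from 254 to 711 CPM in FD_CON and from 609.7 to 849 CPM in FD_PHY. There 33 of 35 members were higher in the PHY arm, with a median log2 change of 0.55. These were the same cows, so the forage values are no independent repeat.

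All 4 members of the miR-29 family were lower in HG_PHY (median log2 change -0.30, or -0.20 without HG_CON 2), of which miR-29a had an unadjusted p under 0.05 in edgeR. After miR-29d-3p came miR-29c at -0.26 ± 0.17 and miR-29b at -0.16 ± 0.14 (-0.14 and -0.06 without HG_CON 2), and on forage the median was -0.21. The partner arms had log2 changes of 0.06 ± 0.30 for hsa-miR-29a-5p, 0.08 ± 0.40 for hsa-miR-29b-1-5p and 0.12 ± 0.23 for miR-29d-5p. Likewise all 5 of the miR-30 family were lower, with a median of -0.20 that rested largely on HG_CON 2 (-0.05 without it) and 0 at an unadjusted p under 0.05. They were led by miR-30d (-0.20 ± 0.11), miR-30c (-0.26 ± 0.16, or -0.12 without HG_CON 2), miR-30a-5p (-0.37 ± 0.29, or -0.05 without HG_CON 2) and miR-30b-5p (-0.12 ± 0.18, or -0.02 without HG_CON 2). All 5 were lower in the PHY arm on forage too, with a median of -0.11. The miR-17-92 clusters, known for promoting proliferation, had 9 of 13 members higher (median 0.08, from 0.02 without HG_PHY 2 to 0.13 without HG_CON 2), among them miR-20b (0.93 ± 0.49, or 0.52 without HG_PHY 4), hsa-miR-18a-5p (0.32 ± 0.17) and miR-106a (0.25 ± 0.22, or 0.13 without HG_CON 1), and miR-19b at -0.22 ± 0.13. In the ruminant miR-2284 and miR-2285 families 14 of 30 tested members were higher and 16 lower (median -0.05). Besides miR-2284w and miR-2284ab, miR-2284y (0.32 ± 0.15) and miR-2285u (-1.09 ± 0.32) had an unadjusted p under 0.05.

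miRNAs tied to inflammation were split. Of 14 members 11 were higher and 3 lower (median log2 change 0.09), and those at an unadjusted p under 0.05 in edgeR were miR-181a and miR-146a, lower, and miR-221 (0.41 ± 0.18), higher. miR-221, which targets the cell-cycle inhibitor p27, stood at 1318 ± 316 CPM in HG_CON (SD, n = 5) and 1750.5 ± 209 CPM in HG_PHY (SD, n = 4), and its cluster partner miR-222 had 0.34 ± 0.17. The paralogues miR-146a and miR-146b differed in sign, with miR-146b at 329 ± 47.2 CPM (SD, n = 5) and 432 ± 145 CPM (SD, n = 4), a log2 change of 0.39 ± 0.19, or 0.20 without HG_PHY 4. Lists of lipid and energy metabolism had 4 higher and 10 lower of 14 (median -0.05), with miR-30c, miR-378 (-0.21 ± 0.14), miR-33b (0.90 ± 0.66) and miR-27a-3p (0.17 ± 0.12) in the lead. The hypoxia and p53 list had 1 of 6 higher (median -0.06), which was miR-34a, a p53 target (0.27 ± 0.16), beside miR-215 (-0.18 ± 0.22), miR-194 (-0.08 ± 0.11) and miR-34c (-0.24 ± 0.38). The sensory-epithelium miR-183 cluster had a median of 0.04, and the changes of its members were -0.04 ± 0.17 for miR-96, 0.04 ± 0.14 for miR-182 and 0.14 ± 0.15 for miR-183.

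**Figure D4:**
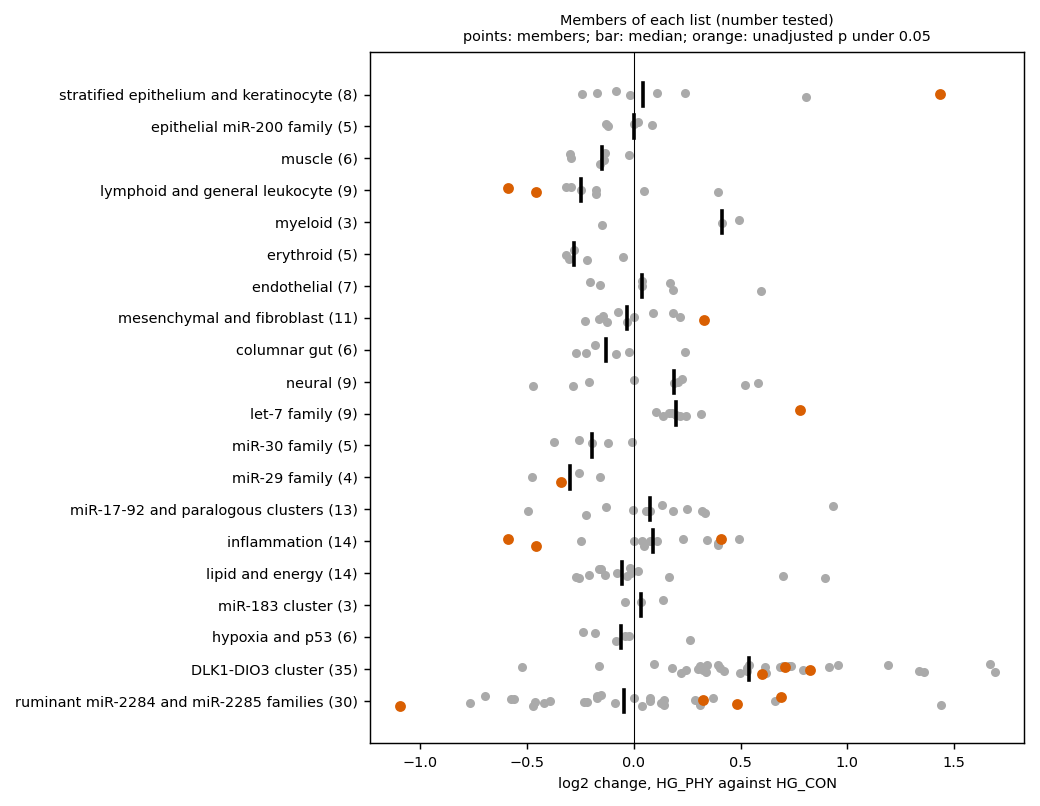
Log2 change of HG_PHY against HG_CON for each tested member of the 20 lists (points), with the median of each list as a bar and members of unadjusted p under 0.05 in orange. The let-7 members all lie above 0, the miR-29, miR-30, muscle and erythroid members all lie below 0, and the DLK1-DIO3 cluster has the largest median, 0.54.

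Lists of cell types were used to describe the makeup of the biopsies. In bulk tissue, fewer cells of a type and less RNA per cell cannot be told apart. Lymphoid and general leukocyte miRNAs were lower in 7 of 9 members in HG_PHY (median log2 change -0.25, or -0.14 without HG_CON 3). Of these, miR-181a and miR-146a had an unadjusted p under 0.05 in edgeR, while miR-146b was higher and miR-155 (hsa-miR-155-5p) had 0.05 ± 0.14. Their summed level was 7689, 7252, 9361, 6244 and 5935 CPM in HG_CON and 5659, 6401, 5865 and 5831 CPM in HG_PHY. The supplemented libraries lay close together at the low end, where HG_CON 4 and 5 lay too. On forage the median was 0.07, and FD_PHY ran from 6604 to 9877 CPM.

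Erythroid miRNAs, which mark blood in a biopsy, were lower in 5 of 5 members (median log2 change -0.28), with 0 at an unadjusted p under 0.05 in edgeR. miR-16a had -0.22 ± 0.16, miR-486 -0.31 ± 0.29, miR-144 -0.32 ± 0.35 and miR-451 -0.28 ± 0.31. Their summed level was 29210.2, 22049, 29982, 18527 and 16356 CPM in HG_CON and 26763, 20480.1, 17497 and 15614 CPM in HG_PHY. HG_CON 1 and 3 were high in both the erythroid and the leukocyte sums, and HG_CON 5 was low in both. HG_PHY 1 was high in the erythroid sum, at 26763 CPM, but the lowest grain library in the leukocyte sum, at 5659 CPM. The erythroid median was -0.61 without HG_PHY 1 and -0.09 without HG_CON 3. None of the erythroid markers was at 0, and the part of blood in the leukocyte values was not tested.

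Of 3 myeloid miRNAs 2 were higher, miR-424-5p and miR-223, and miR-424-3p was lower (-0.15 ± 0.43). The median, 0.41, was the change of miR-424-5p, which is also in the cluster of miR-450b described above. miR-223, abundant in neutrophils, stood at 346, 199.9, 362, 229 and 292 CPM in HG_CON and at 374, 333, 338 and 564 CPM in HG_PHY (log2 change 0.49 ± 0.28, or 0.31 without HG_PHY 4). Muscle miRNAs were lower in 6 of 6 tested members, though by little (median -0.15, or -0.08 without HG_CON 3), led by miR-145 (-0.30 ± 0.22, or -0.17 without HG_CON 2), miR-133a (-0.29 ± 0.26, or -0.14 without HG_PHY 4), miR-143 (-0.14 ± 0.18, or -0.06 without HG_CON 3) and hsa-miR-145-3p (-0.16 ± 0.22). All 6 were lower in the PHY arm on forage too, with a median of -0.26. Mesenchymal miRNAs were split, 5 higher and 6 lower (median -0.03), with miR-22-5p, miR-140 (-0.23 ± 0.12), miR-199a-3p (0.21 ± 0.16) and miR-22-3p first by p. Endothelial miRNAs had a median of 0.04, with the arms of the miR-126 hairpin at -0.21 ± 0.11 and -0.16 ± 0.15, miR-503-5p at 0.60 ± 0.42 and miR-92a at 0.18 ± 0.20.

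Abundant miRNAs of the epithelial lists had small log2 changes. Keratinocyte and stratified-epithelium members split 4 and 4 (median log2 change 0.04), with miR-205 at -0.08 ± 0.12 (95% interval -0.34 to 0.17), miR-455-3p at -0.24 ± 0.16 and miR-31 at 0.24 ± 0.20. The exception in size was miR-184, known from the cornea and epidermis (1.43 ± 0.50), with 43, 9, 22, 16 and 46 reads in HG_CON and 33, 75, 49 and 213 reads in HG_PHY. Without HG_PHY 4 its log2 change was 0.95. The miR-200 family had a median of 0.00, and miR-200c (-0.13 ± 0.16), miR-200b (-0.12 ± 0.16), miR-429 (0.09 ± 0.13) and miR-141 (0.02 ± 0.23) were all within 1 SE of no change. Columnar-gut miRNAs, in part shared with other tissues, had 1 of 6 higher (median -0.13, or -0.01 without HG_CON 3), with miR-122 (-0.27 ± 0.31), miR-215 and miR-375 (-0.22 ± 0.29) after miR-31. Their summed level lay the other way, with a median of 5205 CPM in HG_CON and 6018 CPM in HG_PHY. Most of that sum was miR-31, the 1 member that was higher, which averaged 5009 CPM on grain and is also in the keratinocyte list. Neural miRNAs had a median of 0.19 that turned to -0.18 without HG_PHY 4, with hsa-miR-124-3p (-0.47 ± 0.28), miR-128 (0.21 ± 0.12), miR-129-5p (0.58 ± 0.39) and miR-7 (0.22 ± 0.17) first by p.

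**Figure D5:**
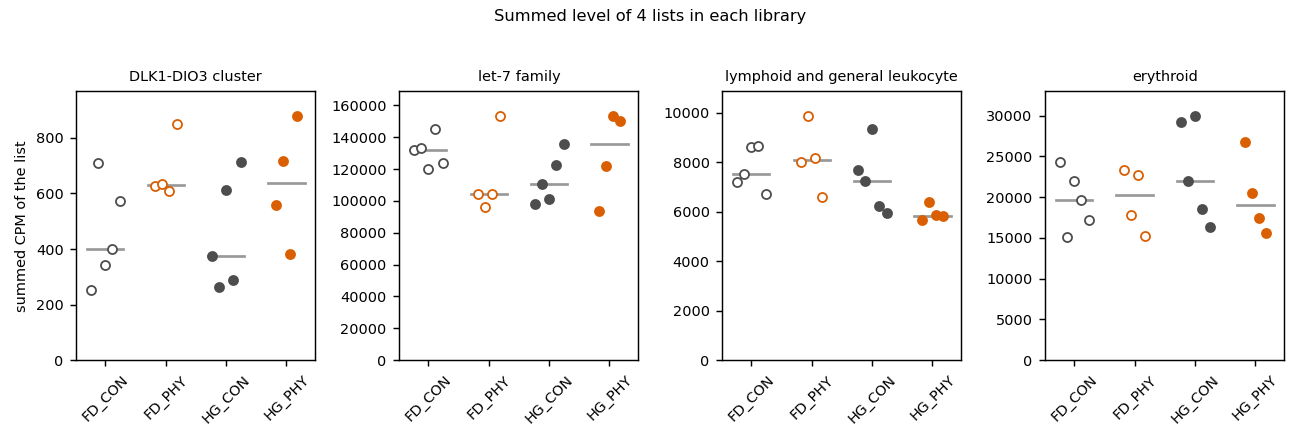
Summed CPM of 4 lists in each library, by group, with the group median as a grey line. On grain the leukocyte sums of HG_PHY lie between 5659 and 6401 CPM at the low end of HG_CON, and the sums of the other 3 lists overlap widely.

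The most abundant miRNAs had small log2 changes too. miR-21-5p, induced in inflamed and growing tissues, took 20.9% ± 2.72 of the reads in HG_CON (SD, n = 5) and 23.9% ± 1.96 in HG_PHY (SD, n = 4), a log2 change of 0.23 ± 0.13 (95% interval -0.04 to 0.50). HG_PHY 4, at 26.9%, was the highest library. miR-143, enriched in smooth muscle, took 11.9% ± 1.55 and 10.6% ± 0.934 (log2 change -0.14 ± 0.18, 95% interval -0.50 to 0.23). The 8 that followed were let-7a-5p, let-7f and let-7g, miR-205, miR-27b and miR-24-3p of the keratinocyte list, and miR-26a and miR-30a-5p. Of these, miR-27b was also in the lipid and energy list and miR-24-3p in the inflammation list. All 10 made up 64.4% ± 1.35 of the reads in HG_CON and 65.7% ± 1.88 in HG_PHY, with log2 changes between -0.37 (miR-30a-5p) and 0.23.

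Some miRNAs varied widely among the grain libraries. By the ratio of the highest to the lowest grain library, miR-211 led with 11.5 (2.11 to 24.3 CPM), followed by miR-2332 with 9.96 (90.0 to 896 CPM), miR-190a with 9.18, miR-2411-3p with 8.89 and miR-7857-3p with 7.45. This ratio was taken over the libraries of both arms, so it includes any difference between the arms. For miR-211 and miR-190a the highest and the lowest library were in opposite arms. miR-211 lies within TRPM1 and is known from pigment cells. It stood at 15.7, 2.11, 5.77, 5.26 and 21.6 CPM in HG_CON and at 24.3, 8.76, 23.1 and 14.2 CPM in HG_PHY (log2 change 0.81 ± 0.73). miR-2332 was highest in HG_CON 4, at 896 CPM, and miR-7857-3p in HG_PHY 4, at 133 CPM. Over the 279 better-covered miRNAs, the coefficient of variation had a median of 18.6% in HG_CON and 17.1% in HG_PHY.

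Scarce miRNAs supplied 9 of the 32 with an unadjusted p under 0.05, each with a mean under 10 CPM. Those outside the lists were named after their values were seen. hsa-miR-412-5p, 0.092 kb from hsa-miR-409-3p in the DLK1-DIO3 region, had 3, 5, 3, 7 and 12 reads in HG_CON and 17, 35, 18 and 33 in HG_PHY (log2 change 2.03 ± 0.63, edgeR adjusted p = 0.286). miR-2285u (chromosomes 13 and 24) had 49, 160, 63, 99 and 113 reads in HG_CON and 19, 40, 63 and 72 in HG_PHY. miR-2320-5p was below every control in each supplemented library, with 17, 10, 11, 12 and 12 reads against 2, 8, 7 and 3. The others were miR-184, miR-11991, miR-382, miR-502b, miR-582 and miR-1949.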

How the data were processed

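Small RNA of rumen papillae was sequenced from 9 cows on 2 diets, 18 libraries in all, of which the 9 on grain form the comparison. The labels' protocols give a NucleoSpin miRNA extraction and NETflex small RNA libraries. Of tools, bcl2fastq 2.20 and DESeq2 (no version or role) appear in the submitters' processing notes. Aligner, counter and build: not given in the sources used here, so only chromosomes are printed.

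Per the file headers, the authors deposited for each mature miRNA name a raw read count and an expected count adjusted for reads that map to several places. The deposited RPM values, scaled by the authors to the read total, served to find read totals. A normalized signal of all libraries was deposited too, from which 100% of 12114 values became whole reads within 0.01 reads and equalled the rounded adjusted counts, and edgeR on these reads called 0 miRNAs.

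The 966 names (759 bovine, 207 human) were merged into 824 miRNAs, 141 with several names, where positions overlapped (15 nt or more) or where bovine and human names had totals within 5%, keeping the name with the highest total. Human entries carry the prefix hsa. One read may count for more than 1 name, so members of families that share reads are uncertain. In the grain libraries 751 miRNAs were seen, and 468 passed filterByExpr over the 18 libraries.

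Raw counts were scaled by TMM and tested with edgeR 4.0.16 (R 4.3.3, limma 3.58.1) by the quasi-likelihood test, two-sided, with 1 mean for each of 4 groups and Benjamini-Hochberg adjustment over all tested, threshold 0.05. The 4 groups share 1 estimate of spread. Each cow enters the grain contrast once, while the spread is taken over 18 libraries from 9 cows treated as independent. Results are relative to all miRNAs, since scaling removes any common shift. The SE of a log2 change was its size divided by the square root of F. The fit was tested on simulated data. Alternatives, with DESeq2 1.42.0 among them, are given with the limits. Library values were compared by exact permutation (scipy 1.17.1).

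The members, the 20 lists and the tests were chosen with earlier results of these data known. The text names the 10 lowest p in each direction at 10 CPM or more, up to 4 members of each list by p, the 10 most abundant miRNAs and the 5 of widest range. Seed families, planned as sums over shared seeds, were not analysed here for lack of miRNA sequences, and none are printed.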

Additional observations from a re-analysis of the deposited data

Results flagged for a closer look

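In 52 sets of 4 or 5 libraries of an arm, a single library stood apart from the rest of its arm by Dixon's criterion in 7, and chance alone does so in about 1 in 20. Among the named miRNAs, HG_CON 4 stood at 243.5 CPM of miR-193a-5p, with the next control at 179.5. HG_PHY 2 stood at 122.9 CPM of miR-450b, with the next supplemented library at 71.9. HG_PHY 1 was the low one for miR-181a, at 563 CPM, with the next at 782, and HG_PHY 4 for miR-142-5p, at 1709 CPM, with the next at 1908. Among the library values, HG_CON 1 had 5.73 M reads assigned to miRNAs, and the next control 8.62 M. HG_PHY 4 gave 26.9% of its reads to its most abundant miRNA, with the next at 23.1%, and had the lowest diversity of its arm, a Shannon index of 4.75 bits with the next at 4.90 bits.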

How the results depend on the processing

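The count of miRNAs called on grain was 0 under every alternative except DESeq2 (2), the replicate block (1) and the fits that left out 1 library (0 to 2, with 2 without HG_CON 4). For the forage contrast it was 1, miR-190a, with DESeq2, no filter and the replicate block, and 0 to 1 with 1 library left out (1 without FD_CON 4). For the difference between the contrasts, and for the library values, it was 0 throughout. The 22 higher at an unadjusted p under 0.05 became 37 with names not merged, 40 with the replicate block and 9 (without HG_PHY 2) to 32 with 1 library left out. The 10 lower became 21 with no filter, 18 with the replicate block, 16 for the 9 grain libraries alone with the replicate block, and 6 (without HG_CON 2) to 21 (without HG_CON 5) with 1 library left out. The causes were not tested.

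The replicate number names different cows in the arms, and the same-numbered libraries did not deviate together (correlations 0.22, -0.10, -0.03 and -0.17), so the block is no pairing. With it edgeR called let-7e (log2 change 0.74, adjusted p = 0.0127).

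The 20 miRNAs named by p kept their sign in all 31 alternatives. Since they were chosen by lowest p in these same data, a kept sign was likely beforehand. Alternatives that left out a forage library also kept every grain library. With 1 library left out, 52 of 82 changes of single miRNAs and 19 of 20 list medians moved by more than 1.5 times or crossed 0. The medians that crossed 0 were those of the neural (-0.18 without HG_PHY 4), keratinocyte (-0.02 to 0.13), miR-200 (-0.13 to 0.09), endothelial (-0.01 to 0.14), mesenchymal (-0.12 to 0.08), miR-183 (-0.00 to 0.11) and miR-2284/miR-2285 (-0.11 to 0.02) lists. With 1 library left out, the log2 change of miR-375 ran from -0.589 to 0.0161 (positive without HG_CON 3), the log2 change of miR-424-3p from -0.415 to 0.0882 (positive without HG_CON 1, HG_CON 3 or HG_PHY 3), the log2 change of miR-182 from -0.00115 to 0.108 (negative without HG_PHY 3), the log2 change of miR-96 from -0.185 to 0.0865 (positive without HG_CON 2 or HG_PHY 4) and the log2 change of miR-141 from -0.109 to 0.236 (negative without HG_CON 5, HG_PHY 1 or HG_PHY 3). The log2 change of miR-141 was also -0.0261 with limma-voom, -0.05645 with the replicate block and -0.131 with the grain libraries alone and the block.

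With 5 and 4 cows, the median 95% interval at 10 CPM or more was 0.79 log2 units wide. Seed families were not run.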
